A study of Homo sapiens with 9 samples.

Results

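The protein kinase C genes were followed in TC32 after silencing of EWS::FLI1, the fusion oncoprotein of this established Ewing sarcoma line. Members were the rows of the count table with the symbols PRKCA, PRKCB, PRKCD, PRKCE, PRKCH, PRKCI, PRKCQ or PRKCZ, which gave 8 of 60603 genes. All 9 libraries were polyA RNA from wild-type (WT) TC32 of a single labelled batch, collected at 30 h. The 3 siEF libraries came from cells given an siRNA against the fusion breakpoint. The 3 siNEG libraries came from cells given a nonspecific siRNA, and the 3 Media libraries from cells labelled Media. TC32 is a single line, so the libraries are replicates of one tumor's cells, and nothing in the labels says more about how the biological replicates were separated.

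Protein kinase C enzymes are serine/threonine kinases that carry signals from phospholipids at the membrane. Phospholipase C cleaves a membrane lipid into inositol trisphosphate, which releases calcium, and diacylglycerol. The conventional isozymes, PRKCA and PRKCB among them, need both calcium and diacylglycerol. PRKCD, PRKCE, PRKCH and PRKCQ respond to diacylglycerol without calcium, and the atypical isozymes PRKCI and PRKCZ respond to neither and work with the PAR polarity proteins. PRKCB is best known from B lymphocytes, where it acts downstream of the antigen receptor, and PRKCQ from T lymphocytes.

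EWS::FLI1 binds GGAA motifs, including long GGAA repeats (microsatellites), so the sequence around the members was searched for them. The 250 bases before the RefSeq start (GRCh38.p14) are shown for PRKCB and PRKCA, the conventional members, because they differ in this motif. Capitals mark GGAA on either strand (TTCC is GGAA on the other strand).
PRKCB, plus strand, chr16:23835733-23835982: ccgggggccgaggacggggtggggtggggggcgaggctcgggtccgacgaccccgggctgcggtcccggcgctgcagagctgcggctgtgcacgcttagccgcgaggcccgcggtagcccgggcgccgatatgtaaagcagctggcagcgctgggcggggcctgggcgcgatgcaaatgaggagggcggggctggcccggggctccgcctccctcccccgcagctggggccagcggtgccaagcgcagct
PRKCA, plus strand, chr17:66302363-66302612: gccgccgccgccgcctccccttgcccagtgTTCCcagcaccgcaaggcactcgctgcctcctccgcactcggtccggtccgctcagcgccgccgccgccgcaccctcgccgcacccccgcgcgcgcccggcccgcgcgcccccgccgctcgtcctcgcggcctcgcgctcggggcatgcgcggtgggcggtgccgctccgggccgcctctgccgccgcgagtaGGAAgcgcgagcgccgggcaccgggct
The stretch before PRKCB holds no GGAA and the stretch before PRKCA holds 2. RefSeq gave 13 windows for the 8 members, each running from 250 bases before a start to 50 bases after it, and 11 of the 13 held GGAA. Of 35116 such windows for all genes, 95.5% held GGAA, with a median of 3 matches. The PRKCB window was 77.7% G or C, higher than 94.6% of all windows. These traits were not particular to PRKCB. The PRKCA window was 81.3% G or C, and the PRKCZ window at chr1:2050161-2050460 was 81% and also held no GGAA. GGAAGGAA, which contains GGAA, lay in 3 of the 13 windows against 3.67% of all windows, and CCGGAAGT, which also contains GGAA, in none against 4.14%. The windows with GGAAGGAA belonged to PRKCD and PRKCZ, which have several windows each, and the PRKCB window held none.

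Runs of 4 or more GGAA units were then located in the hg38 sequence. PRKCB held 10 runs within the gene, 9 of them in introns. PRKCA, PRKCE, PRKCH and PRKCQ held between 1 and 4, and PRKCD, PRKCI and PRKCZ held none. The longest run in PRKCA, a gene of 508.1 kb that was called higher in siEF than in siNEG, had 13 units. The nearest intronic run and the longest intronic run of PRKCB are printed with the longest run of PRKCE, another long gene, which was not called lower in siEF than in siNEG. Capitals mark the run, whose coordinates are given, and the lower case letters are its flanks on the plus strand.
PRKCB intron, 13 units, chr16:23866998-23867049: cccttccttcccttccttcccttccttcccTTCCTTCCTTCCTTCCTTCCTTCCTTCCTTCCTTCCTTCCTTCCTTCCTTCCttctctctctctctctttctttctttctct
PRKCB intron, 15 units, chr16:24021296-24021355: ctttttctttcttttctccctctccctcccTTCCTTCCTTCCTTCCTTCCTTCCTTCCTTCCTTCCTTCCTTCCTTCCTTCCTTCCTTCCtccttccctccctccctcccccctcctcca
PRKCE intron, 10 units, chr2:45716694-45716733: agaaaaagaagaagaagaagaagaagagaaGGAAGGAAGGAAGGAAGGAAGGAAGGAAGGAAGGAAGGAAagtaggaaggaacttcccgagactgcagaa
The first of these lies 31 kb and the second 185 kb downstream of the PRKCB start. Of 598 tested genes at least 300 kb long, 3.34% held 10 or more runs, and their median was 2. Within 100 kb of the start PRKCB had 8 runs, and 0.618% of 16026 tested genes had at least that many. PRKCQ had 7 (matched or exceeded by 1.15%) and PRKCA had 5 (4.22%), while 54.4% of genes had at least 1. Runs were counted apart even when close together, in the members and in all genes alike. Examples are chr16:24021232-24021247 and chr16:24021296-24021355 in PRKCB, and chr10:6505575-6505590 and chr10:6505617-6505632 in PRKCQ. These are matches in the reference genome. The repeat lengths of TC32 and the binding of EWS::FLI1 were not analysed here.

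**Figure D1:**
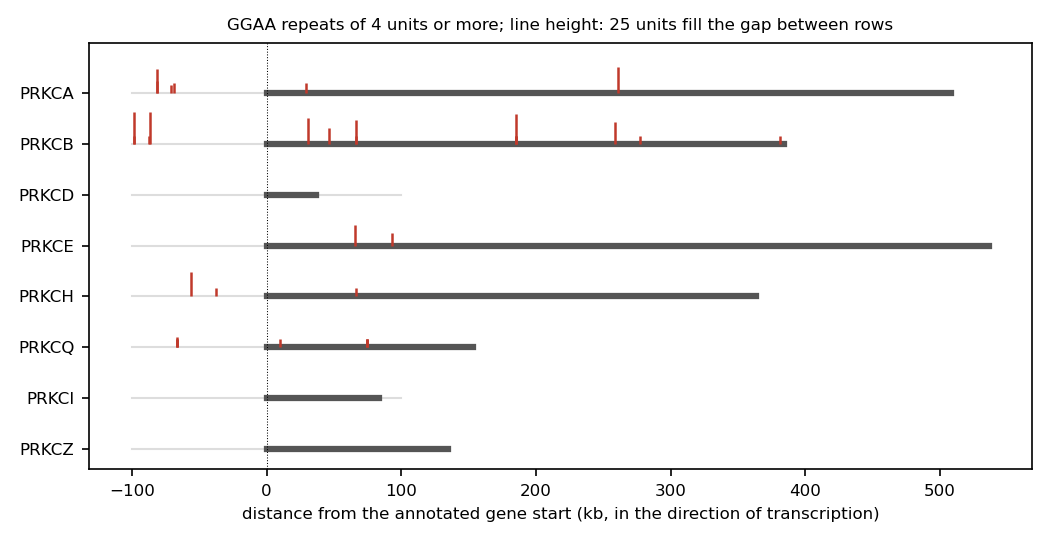
Runs of 4 or more GGAA units around the 8 members. The horizontal axis is the distance from the gene start in kb along the direction of transcription, dark bars are the genes, and the height of each red line is the number of units. PRKCB carries 10 runs within the gene, and PRKCD, PRKCI and PRKCZ carry none.

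The libraries held 20727706 to 33134581 counts. FLI1, whose 3′ part is in the fusion, was measured at 38.4, 35.5 and 39.3 CPM (counts scaled to a common library size) in siEF, 48.6, 48.5 and 48.0 in siNEG, and 59.5, 56.2 and 57.9 in Media. It was lower in siEF than in every control library, at 78.2% of siNEG (adjusted p = 2.88e-05). EWSR1, whose count also takes fusion reads, stood at 85.2% of siNEG (adjusted p = 0.000121). NR0B1, an induced target of the fusion, fell by 2.97 on the log2 scale and PHLDA1, a repressed target, rose by 5.23 (adjusted p = 7e-15 and 4.01e-17). The controls also differed in these checks: in siNEG, FLI1 was at 83.5% and NR0B1 at 77.6% of Media (edgeR adjusted p = 0.00347 and 0.00105). EWSR1 and PHLDA1 did not pass between the controls (edgeR adjusted p = 0.146 and 0.85). Of 7 Ewing sarcoma markers 6 were lower and 1 higher in siEF than in siNEG. All 4 epithelial keratin and adhesion markers were higher, with a summed level of 606 to 655 CPM in siEF against 103 to 108 in siNEG. Of 3 endothelial markers tested 1 was lower (summed 4.44 to 5.58 against 6.95 to 7.66 CPM). The skeletal muscle markers tested, 2 of 4, were both higher (6.86 to 8.08 against 1.52 to 2.02 CPM), while MYOD1 and MYOG were at 0. The 10 most abundant genes took 12.3 to 12.9% of counts in siEF and 5.78 to 6.62% in the other libraries. Their part in the results for the members was not tested.

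The first question was which protein kinase C mRNAs these cells hold and in what order. Levels of different genes were compared as CPM per kb of exon. PRKCB was the most abundant member in the controls, with 26.3, 27.5 and 27.2 CPM per kb in siNEG and 28.8, 30.3 and 29.7 in Media. PRKCI came next with 10.8, 11.2 and 10.7 in siNEG, and the 2 genes did not overlap in either control. PRKCD (2.3 CPM per kb on average in siNEG), PRKCE (1.23) and PRKCA (0.4) followed, each clear of its neighbor in all 3 groups. PRKCZ was at 0.0459, and PRKCH and PRKCQ were lower still at 0.0117 and 0.00325, with libraries that overlapped in siNEG. The B and T lymphocyte markers MS4A1, CD3D and CD3E were at 0 in all 9 libraries, and the 8 blood cell markers summed to between 0.664 and 0.984 CPM.

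The first 2 places were closer in siEF. PRKCB stood at 12.6, 12.6 and 12.5 CPM per kb and PRKCI at 12.5, 11.8 and 12.6, so the 2 genes overlapped there. With the length of the canonical transcript in place of all exons, PRKCB stayed ahead in siEF, at 17.3 against 14.6 for PRKCI. PRKCB made up 64.4 to 64.6% of the summed level of the 8 genes in siNEG, 66.7 to 67.0% in Media and 41.0 to 42.4% in siEF. PRKCI made up 25.5 to 26.3% in siNEG and 39.7 to 41.6% in siEF, and PRKCD went from 5.43 to 5.54% to 10.4 to 11.0%. The summed level was 41.9 ± 0.898 CPM per kb in siNEG and 30.1 ± 0.378 in siEF (SD, n = 3). Without PRKCB the other 7 summed to 14.9 ± 0.31 in siNEG, 14.7 ± 0.455 in Media and 17.6 ± 0.435 in siEF. A share also moves when another member moves, so the level of each gene is given next.

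**Figure D2:**
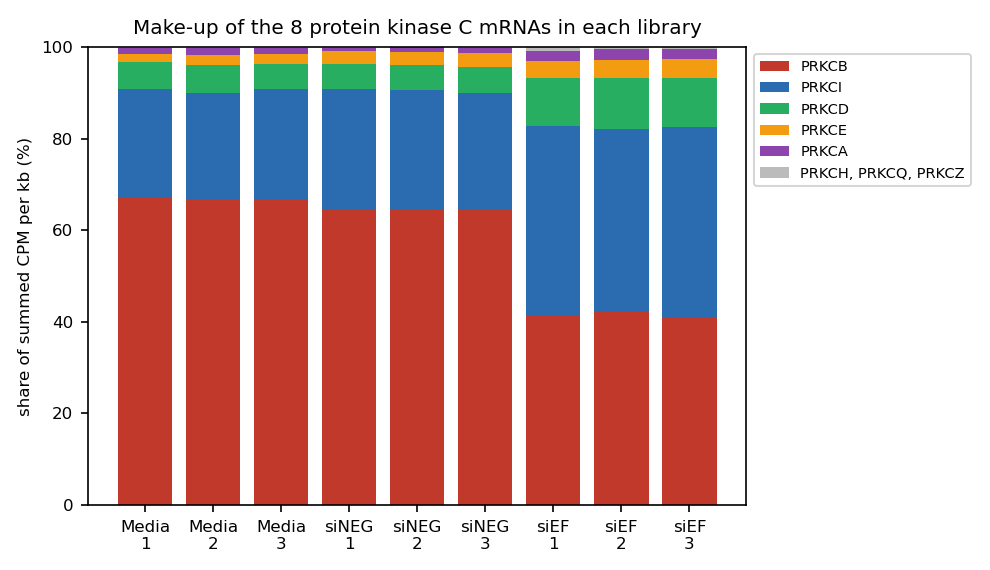
Share of each protein kinase C mRNA in the summed CPM per kb of exon (%) in each of the 9 libraries, stacked to 100. PRKCB holds at least 64.4% of every Media and siNEG bar and at most 42.4% of the siEF bars, where PRKCI holds 39.7 to 41.6%.

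The comparison of siEF with siNEG asks what silencing of the fusion does beyond transfection of an siRNA. A gene was said to differ where the quasi-likelihood test of edgeR gave an adjusted p under 0.01 (Benjamini-Hochberg over 16093 genes) and to be a target with, in addition, a log2 fold change beyond 1. Of the 8 members 6 had enough counts to be tested. PRKCA, PRKCD and PRKCI were higher in siEF, PRKCB was lower, and PRKCE and PRKCZ did not pass. PRKCB was the only member called as a target. That is 4 of 6, against 65.4% of all genes tested. By direction it is 3 higher against 33.6% of all genes and 1 lower against 31.7%. The target called lower compares with 11.7% of all genes, and no member was called a higher target (17.1% of all genes). The median log2 fold change of the 6 was 0.33, and that of all genes tested was 0.05.

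PRKCB was measured at 139, 139 and 138 CPM in siEF, 291, 303 and 301 in siNEG, and 318, 335 and 329 in Media. The siEF libraries lay within 1 CPM or so of each other and far below every control library. PRKCB stood at 46.5% of siNEG (95% interval 43.8 to 49.3), and its log2 fold change was -1.11 with an SE of 0.04 (adjusted p = 2.93e-13); SEs follow log2 fold changes after ± from here on. Fewer cells of a type and less mRNA per cell cannot be told apart in bulk RNA. The call as a target was near its limit: tested against a log2 fold change of 1 itself, PRKCB had an adjusted p of 0.0104 by edgeR's glmTreat. The 3 protein-coding genes whose centred log2 CPM followed PRKCB most closely over the 9 libraries were PSMD11, a proteasome subunit, OGFOD1, a ribosomal protein hydroxylase, and LRATD2. Their root mean square differences from PRKCB were 0.034, 0.034 and 0.035 log2 units among 13380 genes compared, and their log2 fold changes in siEF against siNEG were -1.16, -1.16 and -1.18. Genes picked in this way must have fold changes close to that of PRKCB, so these values are a description only.

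PRKCA, also conventional, moved the opposite way against siNEG. It was measured at 7.73, 7.64 and 7.54 CPM in siEF, 3.63, 4.48 and 5.29 in siNEG, and 6.11, 7.87 and 6.74 in Media. The siEF libraries were above every siNEG library and within the range of the Media libraries. PRKCA was 1.71-fold higher than in siNEG (log2 fold change 0.77 ± 0.14, adjusted p = 0.000129). Its level in siNEG was below all 3 Media libraries, so the size of its rise depends on the control.

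PRKCD, a diacylglycerol-responsive isozyme linked to apoptosis, was measured at 15.5, 16.1 and 15.9 CPM in siEF, 11.0, 11.4 and 11.5 in siNEG, and 12.2, 13.5 and 11.8 in Media. All siEF libraries were above all 6 control libraries. It was 1.4-fold higher than in siNEG (log2 fold change 0.49 ± 0.08, adjusted p = 3.74e-05). PRKCE, of the same class, was measured at 11.2, 12 and 12.8 CPM in siEF, 11.6, 12.3 and 13.0 in siNEG, and 8.2, 9.77 and 10.2 in Media. The siEF and siNEG libraries overlapped, and both lay above Media. The log2 fold change against siNEG was -0.03 with a 95% interval from -0.24 to 0.17 (adjusted p = 0.758).

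PRKCI, the more abundant atypical isozyme, was measured at 72.2, 68.1 and 73.1 CPM in siEF, 62.2, 64.6 and 62.1 in siNEG, and 59.3, 61.0 and 62.2 in Media. Every siEF library exceeded every control library, by little. PRKCI was 1.13-fold higher than in siNEG (log2 fold change 0.18 ± 0.05, adjusted p = 0.00525). Leaving out siEF replicate 1 or 3, any siNEG library or Media replicate 2 ended this call, with adjusted p between 0.0108 and 0.0458. PRKCI shares 1794 bases at 96.5% identity with PRKCIP1, and its estimated counts are not whole, so reads were divided between copies and the level is uncertain to that extent. PRKCIP1 itself summed to 105 counts over the 9 libraries, against 17137 for PRKCI.

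PRKCZ, the other atypical isozyme, had 31, 11 and 9 counts in siEF, 14, 9 and 11 in siNEG, and 13, 15 and 10 in Media. Only siEF replicate 1 stood apart. The log2 fold change against siNEG was 0.89 ± 0.48 (adjusted p = 0.101), and without that library it was 0.23. Exons of PRKCZ share 590 bases with FAAP20 on the other strand, which had 9355 counts over the libraries. The strand setting of the counting was not given in the sources used here, so reads of the 2 genes may not be told apart.

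PRKCH and PRKCQ fell under the filter on low counts. PRKCH had 7, 5 and 11 counts in siEF, 0, 3 and 7 in siNEG, and 0, 1 and 0 in Media. PRKCQ had 6, 4 and 3 counts in siEF, 0, 0 and 1 in siNEG, and 1, 1 and 1 in Media. For PRKCQ every siEF library was above every control library, whereas the lowest siEF library of PRKCH had fewer counts than the highest siNEG library (scaled to library size, its groups did not overlap). Summed and scaled by library size, the ratio of siEF to siNEG was 2.88 for PRKCH (95% interval 1.32 to 6.78) and 16.3 for PRKCQ (2.45 to 692), intervals that cover counting error only. With no filter edgeR's adjusted p against siNEG was 0.221 for PRKCH and 0.0422 for PRKCQ, neither under 0.01. Against Media it was 0.00143 for PRKCH and 0.188 for PRKCQ, and DESeq2 gave 0.00711 and 0.167, so PRKCH passed there, on 23 counts in siEF and 1 in Media.

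**Figure D3:**
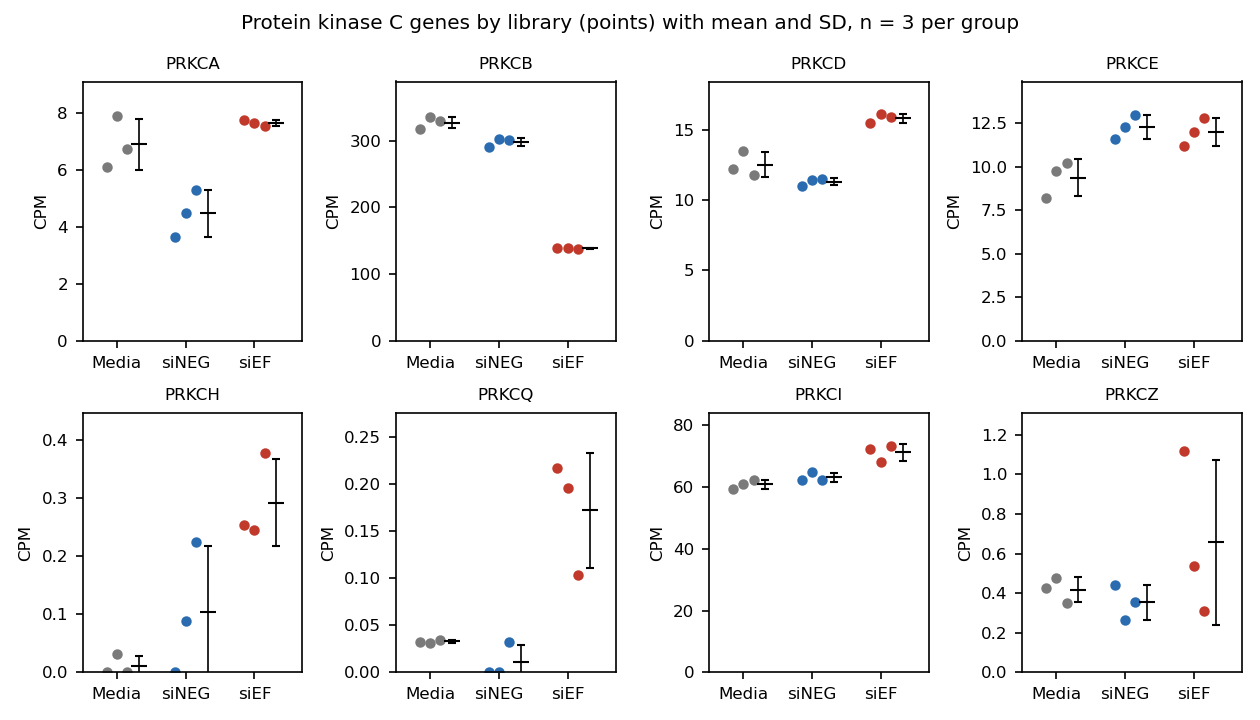
Level of each member in CPM (vertical axes, linear, from 0) in the 3 Media, 3 siNEG and 3 siEF libraries, one point per library, with the mean and SD beside them (SD bars that reach below 0 are cut there). PRKCB is at 138 to 139 in siEF against at least 291 in every control library, and siEF replicate 1 of PRKCZ stands apart.

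Against Media, a comparison that shares the siEF libraries with the one above, 4 of the 6 members differed, against 65.9% of all genes tested: 3 were higher (33.6% of all genes) and PRKCB was lower, again as a target (lower for 32.3%, and lower targets for 12.5%). The siEF and Media libraries did not overlap for PRKCB, PRKCD, PRKCE and PRKCI, which held for 75.8% of all genes. PRKCB was at 42.4% of Media (log2 fold change -1.24 ± 0.04, adjusted p = 6.83e-14). It was also past the limit when tested against a log2 fold change of 1 itself (glmTreat adjusted p = 1.47e-05). PRKCD was 1.26-fold higher (adjusted p = 0.00118), PRKCI 1.17-fold higher (adjusted p = 0.000783) and PRKCE 1.28-fold higher (adjusted p = 0.00402). PRKCA, higher against siNEG, had a log2 fold change of 0.14 with a 95% interval from -0.15 to 0.44 (adjusted p = 0.356). PRKCZ had 0.65 ± 0.47 (adjusted p = 0.221). The call of PRKCE was lost without siEF replicate 2 or 3 or Media replicate 1, with adjusted p from 0.0102 to 0.0265, and with DESeq2 (adjusted p = 0.0135).

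Between the controls 1 of the 6 members differed, against 9.79% of all genes tested, or 5.96% in the same direction. PRKCA was at 64.7% of Media in siNEG (log2 fold change -0.63 ± 0.14, adjusted p = 0.00551). This call was lost without siNEG replicate 1 or 2 or Media replicate 2 or 3, with adjusted p between 0.0111 and 0.0338. The siNEG and Media libraries did not overlap for PRKCA, PRKCB, PRKCD and PRKCE, which held for 32.7% of all genes. PRKCE had a log2 fold change of 0.39 ± 0.10, just outside the limit (adjusted p = 0.0103). PRKCB was at 91.3% of Media (adjusted p = 0.0279), PRKCD at 90% (adjusted p = 0.22) and PRKCI at 104% (adjusted p = 0.556). Thus PRKCB, PRKCD and PRKCI were called in the same direction against both controls, while PRKCA was called against siNEG alone and PRKCE against Media alone.

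**Figure D4:**
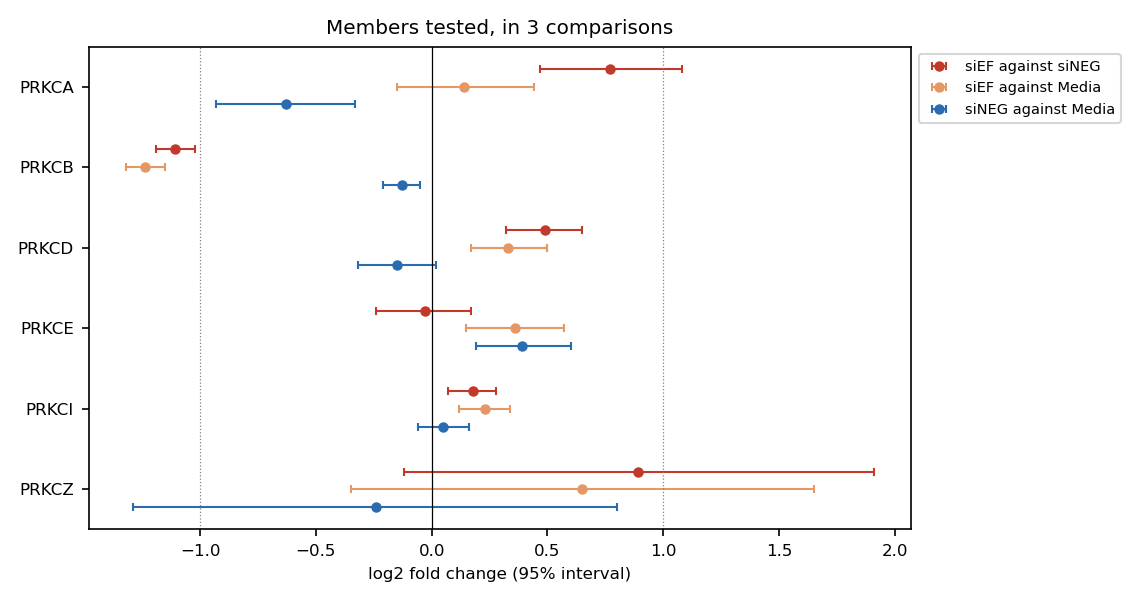
Log2 fold change (horizontal axis) of the 6 members tested, with 95% intervals, in siEF against siNEG, siEF against Media and siNEG against Media. Dotted lines mark a log2 fold change of 1 either way. PRKCB lies at -1.11 and -1.24 in the siEF comparisons, and PRKCA lies at 0.77, 0.14 and -0.63.

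The genes that work around protein kinase C were described next, from a list of 66. Of 54 tested, 19 were higher in siEF than in siNEG, 16 were lower and 19 did not pass, which is 64.8% called and close to the 65.4% of all genes. Targets were 11 higher and 4 lower (17.1% and 11.7% of all genes). Against Media 16 were higher and 15 lower, which is 57.4% called, against 65.9% of all genes. Targets against Media were 7 higher and 4 lower, beside 2793 and 2011 of all 16093 genes tested. Over all genes 33.6% were higher and 31.7% lower against siNEG, and 33.6% were higher and 32.3% lower against Media. These shares are the background of each count by role. Phospholipase C enzymes, which make diacylglycerol, were higher for 4 of 11 tested and lower for 2 (3 and 1 against Media). Their largest changes were PLCD1 at 4.93 ± 0.717 CPM in siEF against 1.39 ± 0.238 in siNEG (log2 fold change 1.82), PLCD3 at 38.8 ± 0.869 against 11.2 ± 0.283 (1.79) and PLCB4 at 19.6 ± 0.702 against 6.18 ± 0.766 (1.67; SD, n = 3). The siEF and siNEG libraries of these 3 genes did not overlap, which held for 76.9% of all genes tested. PLCE1, also among the 4 higher, had 14, 17 and 22 counts in siEF, 7, 8 and 7 in siNEG, and 6, 13 and 11 in Media. Its log2 fold change was 1.59 ± 0.44 against siNEG, and it did not pass against Media (1.06 ± 0.42, edgeR adjusted p = 0.0325). Without the siEF libraries, where it was highest, it would not have met the filter on low counts.

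Diacylglycerol kinases, which remove diacylglycerol by phosphorylation, were lower for 4 of 8 tested and higher for 2 (4 and 1 against Media). DGKD fell from 285 ± 4.16 CPM in siNEG to 92.7 ± 0.647 in siEF (log2 fold change -1.62, adjusted p = 6.77e-15). DGKG, with at most 19 counts in any library, had a log2 fold change of -2.01 ± 0.61 (adjusted p = 0.00744), and did not pass against Media (-1.23 ± 0.66, adjusted p = 0.103). Its counts were 6, 0 and 3 in siEF and 12, 19 and 15 in siNEG. It met the filter on low counts only through the siNEG libraries, where it was highest. Of 6 genes that set the phosphorylation of the kinases 3 were lower and none higher (2 and 0 against Media). MTOR, whose complex phosphorylates protein kinase C in its C-terminal tail, fell from 158 ± 11.9 to 75.5 ± 3.32 CPM (log2 fold change -1.07, adjusted p = 4.2e-11), and against Media its log2 fold change was -0.88.

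Scaffolds were higher for 7 of 12 tested and lower for none against siNEG, and higher for 5 and lower for 1 against Media. The 1 was CAVIN2, named after its values were seen, with a log2 fold change of 0.35 against siNEG and -0.74 against Media. Of the PAR polarity genes PARD3B had a log2 fold change of 1.51 ± 0.30 against siNEG, from 0.779 ± 0.219 to 2.25 ± 0.639 CPM. PARD3 had 1.01 ± 0.05 against siNEG, from 54.9 ± 1.49 to 110.1 ± 1.93 CPM. PARD6B, an adaptor that binds the atypical isozymes, had 1.46 ± 0.08 against siNEG, from 9.15 ± 0.714 to 25.1 ± 1.19 CPM. Against Media it had 1.00 ± 0.08, and siNEG was itself below Media (-0.46 ± 0.08, edgeR adjusted p = 0.00119). The size of its rise thus depends on the control. The other PAR6 genes, PARD6A and PARD6G, had -0.05 and 0.08 against siNEG and did not pass (adjusted p = 0.828 and 0.36). AKAP12, an anchoring protein and substrate of protein kinase C, went from 69.0 ± 2.01 to 181 ± 3.66 CPM (log2 fold change 1.39, adjusted p = 7.71e-13). Among substrates 3 of 7 were higher and 2 lower (4 and 2 against Media). MARCKS, a membrane and actin binding substrate, rose from 192 ± 9.8 to 413 ± 9.2 CPM (SD, n = 3), and ADD1, which caps actin at the membrane, from 122 ± 2.93 to 259 ± 2.07 (log2 fold changes 1.10 and 1.09). Against Media both had a log2 fold change of 0.87, so neither was a target there. GAP43, a growth cone protein, fell from 4.86 ± 0.133 to 2.33 ± 0.347 CPM (log2 fold change -1.06).

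Of the other proteins that bind diacylglycerol 4 of 10 were tested. UNC13D, needed for granule release, had 21, 12 and 15 counts in siEF, 5, 0 and 0 in siNEG, and 0, 5 and 2 in Media. It was called higher against siNEG (log2 fold change 3.48 ± 0.84, adjusted p = 0.00134). It met the filter on low counts only through the siEF libraries, so it could enter the test only by being high there. The other 3 genes tested were lower (2 against Media). Of 6 related kinases (the protein kinase D and PKN families) 2 were higher and 2 lower (2 and 3 against Media), and none was a target.

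**Figure D5:**
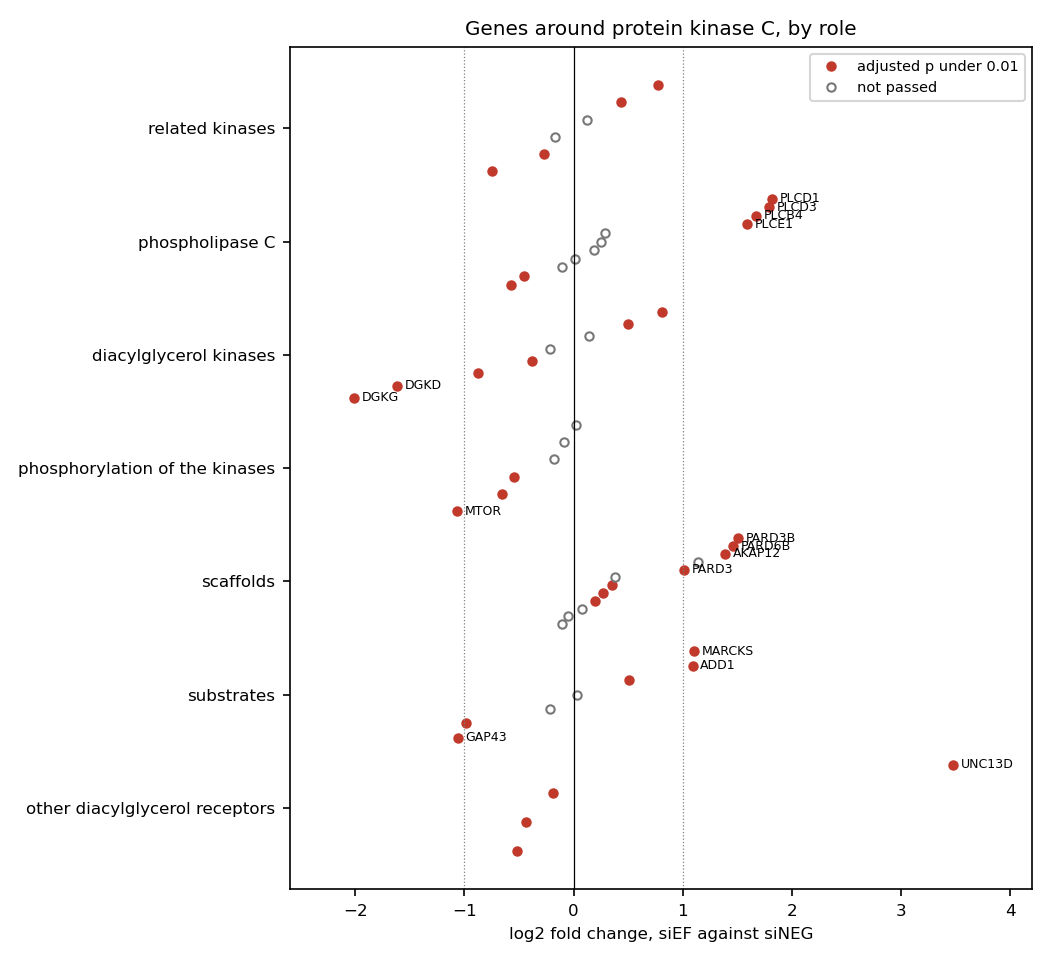
Log2 fold change of siEF against siNEG (horizontal axis) for the 54 tested genes around protein kinase C, in rows by role. Filled points passed an adjusted p of 0.01, open points did not, and names mark targets. Among scaffolds 7 are higher and none lower against siNEG. UNC13D, farthest to the right at 3.48, met the filter on low counts only through the siEF libraries. PLCE1 also needed the siEF libraries to meet it.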

How the data were processed

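RNA-seq libraries of TC32 (3 siEF, 3 siNEG, 3 Media) were analysed from the deposited gene table. Per the labels and the study's methods, the authors trimmed reads with cutadapt 2.10, mapped them with STAR 2.7.1a (hg38) and quantified genes with RSEM 1.3.1; the deposited values are expected counts, not normalized. The labels name polyA RNA and a small RNA library kit. Depth was 20727706 to 33134581 counts, so genes under about 30 counts are imprecise.

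After rounding to whole numbers, the expected counts passed filterByExpr, were scaled by TMM and were tested with edgeR 4.0.16 (quasi-likelihood test, all 9 libraries, Benjamini-Hochberg), with the study's cut-offs of an adjusted p of 0.01 and a log2 fold change of 1. Levels between genes were CPM per kb of union exon (GENCODE 44). P-values measure the spread between these libraries, which may be technical. Members and lists were chosen with earlier results of these data known. Genes named were all members, 4 checks of the silencing, targets among the surrounding genes (up to 3 per role by size of change) and the 3 genes most like each member called a target. PLCE1, PARD3 and CAVIN2 were named in addition, after their values were seen. DESeq2, other scalings, filters, controls, lengths and left-out libraries were tried as alternatives. Some items are not reported here.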

Additional observations from a re-analysis of the deposited data

How the results depend on the processing

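PRKCB was called lower in siEF than in siNEG under every alternative but the test against the cut-off itself, which left 0 members differing in either direction from siNEG (targets 0), 0 higher against Media, 0 lower between the controls, and 5 surrounding genes higher and 1 lower. Leaving out each library in turn gave PRKCB -1.16 to -1.10, PRKCA 0.61 to 0.90, PRKCD 0.44 to 0.50, PRKCI 0.14 to 0.20, PRKCE -0.11 to 0.01 and PRKCZ 0.23 to 1.25 against siNEG on the log2 scale. PRKCI was 0.14 with no filter on low counts (adjusted p = 0.0631 by edgeR). With Media as the control PRKCA was 0.14. PRKCE changed sign to 0.05 with upper quartile factors, 0.36 with Media as the control, 0.16 with both controls pooled and 0.01 without siEF replicate 1; its value with siNEG was never past the threshold. Upper quartile factors moved the median of all genes by 0.09. PRKCZ against Media ranged from -0.02 (without siEF replicate 1) to 1.01.

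Between the controls the members called lower numbered 0 with only the 6 libraries compared, 2 with DESeq2 and 0 to 1 with a library left out. Those called higher numbered 1, PRKCE, with upper quartile factors, no filter, the replicate block, protein-coding genes only and a minimum of 10 counts per library, and 0 to 1 with a library left out. The replicate numbers did not pair the libraries (same-number correlations of -0.09 to 0.05); with the replicate block 10386 genes differed in siEF against siNEG, against 10519 without it. The cause of these changes was not tested.

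With the canonical transcript's length, levels in siNEG became 37.3 CPM per kb for PRKCB, 12.9 for PRKCI, 3.99 for PRKCD, 2.14 for PRKCE, 0.498 for PRKCA, 0.148 for PRKCZ and 0.028 for PRKCH. Shares became 65.4% for PRKCB, 22.6% for PRKCI, 7% for PRKCD and 3.76% for PRKCE. Depth limits PRKCH, PRKCQ and PRKCZ, with at most 31 counts in any library.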

Other observations

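The antisense gene PRKCQ-AS1 had 1, 0 and 0 counts in siEF, 13, 6 and 6 in siNEG, and 1, 0 and 5 in Media. It was highest in siNEG, and the ratio of siEF to siNEG was 0.0501 (95% interval 0.00122 to 0.306, counting error only). PRKCZ-AS1 had 17, 16 and 17 counts in siEF and 7, 13 and 15 in siNEG, and 24, 10 and 8 in Media, where replicate 1 had more counts than any siEF library. It shares 83 exon bases with PRKCZ. PRKCA-AS1 was at 0 in all 9 libraries.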
